A study of Mus musculus with 30 samples.

Results

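The regions described here carried an H3K27ac peak in CK1750 cells with DMSO, in Tnm2 cells with DMSO and in Tnm2 cells with UNC0638, and no peak in CK1750 cells with UNC0638. They were chosen by the measured peak calls: peaks of the 4 lists that overlapped or touched were joined into regions on chromosomes 1 to 19 and X, and a region was kept when 3 of the lists had a peak in it and the list of treated CK1750 had none. Of 37671 joined regions, 538 had this pattern, and they are called members and numbered R1 to R538 in genome order. Because the rule used presence in the lists, the absence of a peak in treated CK1750, and the peak scores that go with presence, are described and not tested.

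CK1750 and Tnm2 are mouse lung adenocarcinoma lines, each grown in the solvent DMSO alone or with 1 µM UNC0638, and CK1750 was used in the study as a line resembling tumor-propagating cells. Of the 30 samples in 12 groups, 9 were H3K27ac immunoprecipitations: 3 of CK1750 DMSO under 2 replicate numbers, 2 of CK1750 UNC0638 under 1 replicate number, 2 of Tnm2 DMSO and 2 of Tnm2 UNC0638. Each group came as 1 merged list of peaks, so there is no spread between replicates for any value and no difference between groups was tested. The study's methods give a treatment time for cell culture experiments in general and none for the immunoprecipitations in particular, and the labels give no time, genotype or strain. The number of biological replicates in the study's methods is higher than the number the labels show for each group, and this was not resolved. Both lines are bulk cultures, in which fewer cells with the mark and less of the mark per cell cannot be told apart.

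G9a and Glp are methyltransferases that place H3K9me2, a mark of silent chromatin, and UNC0638 inhibits both. Acetylation of lysine 27 of histone H3 marks promoters and enhancers in use. Enhancers differ more between cell types than promoters of broadly used genes do, and promoters of the latter kind are usually rich in the CpG dinucleotide.

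The 6 sequences below are high-ranked examples and do not stand for the whole set. None is from an intron, where 44.4% of members lay. The examples are the 3 promoters of protein-coding genes and the 3 regions between genes that ranked highest when members were ordered by the lowest of their 3 score percentiles. Members with a near-identical copy or with a treated CK1750 peak within 1 kb were left out first. Each line gives 300 bases of the GRCm38 (mm10) plus strand, 5′ to 3′, from RefSeq, centred on the CK1750 DMSO peak. Capitals mark the letters of an AP-1 site (TGANTCA), an ETS site (CGGAAG) or an SP/KLF site (GGGCGGG) on either strand. Matches to different strings were counted separately, also where they shared bases.
Zfp395 promoter, R398, chr14:65374469-65374768: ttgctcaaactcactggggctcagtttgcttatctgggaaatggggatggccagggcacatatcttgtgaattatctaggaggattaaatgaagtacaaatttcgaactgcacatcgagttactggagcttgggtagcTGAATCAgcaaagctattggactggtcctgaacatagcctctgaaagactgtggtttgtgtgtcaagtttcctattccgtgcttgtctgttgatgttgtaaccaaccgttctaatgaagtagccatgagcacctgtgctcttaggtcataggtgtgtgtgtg
Dpy19l3 promoter, R218, chr7:35754352-35754651: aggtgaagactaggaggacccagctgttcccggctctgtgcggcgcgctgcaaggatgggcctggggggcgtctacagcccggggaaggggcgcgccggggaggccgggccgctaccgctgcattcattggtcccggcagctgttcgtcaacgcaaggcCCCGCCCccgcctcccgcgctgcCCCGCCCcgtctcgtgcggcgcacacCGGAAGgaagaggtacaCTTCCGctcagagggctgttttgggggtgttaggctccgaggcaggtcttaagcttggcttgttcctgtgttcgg
Dcp1b promoter, R205, chr6:119175332-119175631: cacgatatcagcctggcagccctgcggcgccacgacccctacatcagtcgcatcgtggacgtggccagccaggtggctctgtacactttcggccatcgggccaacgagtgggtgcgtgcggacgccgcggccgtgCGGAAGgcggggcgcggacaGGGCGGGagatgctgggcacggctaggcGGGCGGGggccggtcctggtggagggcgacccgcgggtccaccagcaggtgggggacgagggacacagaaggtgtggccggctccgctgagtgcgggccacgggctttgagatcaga
Between genes near Glrp1, R19, chr1:88575883-88576182: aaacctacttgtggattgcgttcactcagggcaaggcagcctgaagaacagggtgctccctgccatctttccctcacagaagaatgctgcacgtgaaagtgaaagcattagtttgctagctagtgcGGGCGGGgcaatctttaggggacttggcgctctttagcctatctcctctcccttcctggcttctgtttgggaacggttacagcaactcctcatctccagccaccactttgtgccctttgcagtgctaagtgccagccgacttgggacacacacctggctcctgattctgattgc
Between genes near Adcyap1, R467, chr17:93525730-93526029: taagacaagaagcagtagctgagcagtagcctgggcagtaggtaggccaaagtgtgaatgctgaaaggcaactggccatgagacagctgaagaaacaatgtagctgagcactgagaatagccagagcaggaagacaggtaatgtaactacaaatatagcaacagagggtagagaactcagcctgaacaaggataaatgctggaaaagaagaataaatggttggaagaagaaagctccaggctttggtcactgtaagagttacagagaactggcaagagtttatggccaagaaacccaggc
Between genes near Ank, R409, chr15:27436435-27436734: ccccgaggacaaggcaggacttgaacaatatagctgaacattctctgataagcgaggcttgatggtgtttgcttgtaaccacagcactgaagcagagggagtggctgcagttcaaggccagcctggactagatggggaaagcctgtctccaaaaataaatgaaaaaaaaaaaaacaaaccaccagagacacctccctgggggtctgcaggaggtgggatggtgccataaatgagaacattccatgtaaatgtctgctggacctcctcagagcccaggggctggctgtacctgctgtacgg
The Dpy19l3 and Dcp1b windows were CpG-rich promoter DNA, with 28 and 33 CG dinucleotides and a GC content of 68.3% and 71.3%. Zfp395, a zinc finger gene, had a promoter window of another kind, with 4 CG dinucleotides, a GC content of 45% and 1 AP-1 string. The windows between genes held 7, 0 and 3 CG dinucleotides in the order printed. They are labelled by the protein-coding gene with the nearest TSS, which lay 65.2, 323 and 29.0 kb from the member in the same order. Over all 24261 regions with a CK1750 DMSO peak, windows of the same length held the AP-1 string in 10.4%, the ETS string in 14.1% and the SP/KLF string in 17.9%.

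Of 13423 regions with a peak in the 3 other lists, 4.01% (95% Wilson interval 3.69 to 4.35) had none in CK1750 UNC0638. The share was 8.94% (995 CK1750 DMSO peaks) when peaks had to overlap by 50% of each other's length, 2.30% (208 regions) with a score of at least 100 in all lists, and 0.443% (40 regions) with that score asked only of the 3 lists with a peak. Of all 24261 regions with a CK1750 DMSO peak, whatever Tnm2 showed, 23.2% had no CK1750 UNC0638 peak, and the members are 538 of these 5634. The corresponding pattern with treated Tnm2 as the missing list held 3261 regions, and 1118 regions had a peak in both lines with DMSO and in neither with UNC0638. The intervals cover counting error only, and the sequencing depth behind the lists is unknown.

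Most members were weak peaks in CK1750 DMSO. The score of a peak is -10 log10 of the P value given by the authors' caller, every list starts at 50, and a score ranks peaks within its own list. In CK1750 DMSO the best peak of a member scored from 50.14 to 738.28 with a median of 76.9, which is a median percentile of 26.98 in that list. In Tnm2 DMSO the scores ran from 51.58 to 1934.03 with a median of 136.7 and a median percentile of 49.1. In Tnm2 UNC0638 they ran from 50.02 to 849.28 with a median of 75.8 and a median percentile of 27.6. Members were thus near the middle of the Tnm2 DMSO list and in the lower part of the other lists.

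Regions present in all 4 lists ranked higher in each of them, with median percentiles of 75.1 in CK1750 DMSO, 78.0 in Tnm2 DMSO and 63.7 in Tnm2 UNC0638. A CK1750 DMSO score under 100 was found in 383 of the 538 members (71.2%, 67.2 to 74.9) and in 8.63% of the regions in all 4 lists. For Tnm2 DMSO the members under 100 numbered 157 (29.2%), and for Tnm2 UNC0638 they numbered 395 (73.4%). The member ranked higher in Tnm2 DMSO than in CK1750 DMSO in 434 of 538 cases (80.7%, 77.1 to 83.8), against 57.8% of the regions in all 4 lists. Only 8 members lay above the median of all 3 lists, and 40 scored at least 100 in each.

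**Figure D1:**
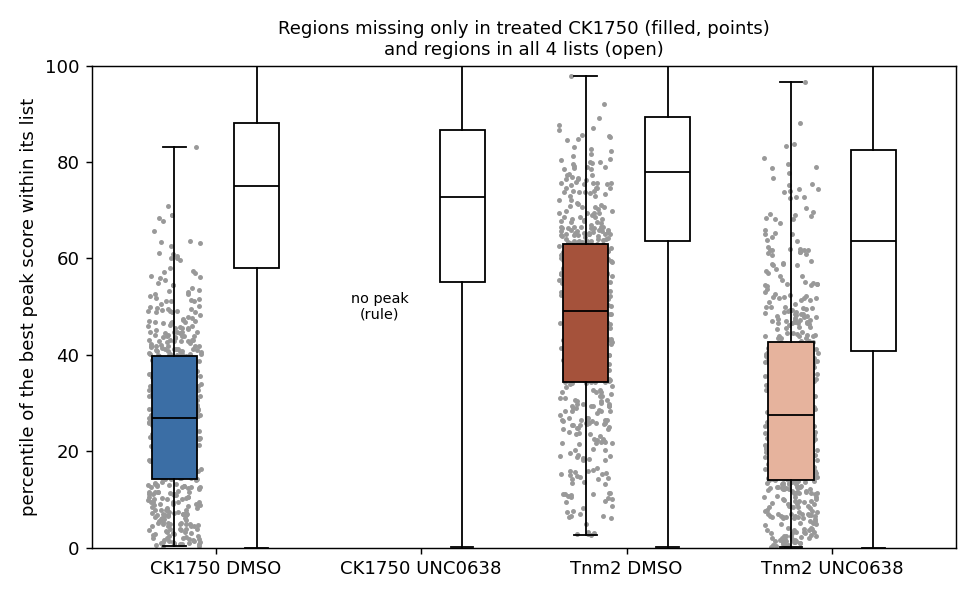
Percentile of the best peak score within its list (y axis) for each list (x axis). Gray points and filled boxes are the 538 members, open boxes the 12885 regions in all 4 lists; a box spans the quartiles with the median as a line, and whiskers reach the lowest and highest value. Members had medians of 26.98, 49.1 and 27.6 in CK1750 DMSO, Tnm2 DMSO and Tnm2 UNC0638, below the open boxes' medians in each list.

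The peaks of the 3 lists usually marked the same DNA within a member, which the joining of overlapping peaks favors. The best CK1750 DMSO, Tnm2 DMSO and Tnm2 UNC0638 peaks overlapped one another in 498 of the 538 members (92.6%, 90.0 to 94.5). This held for 96.1% of regions in all 4 lists and 87.1% of those with a CK1750 DMSO score under 100. It was thus not particular to the members. The best peak had a median width of 597.5 bp in CK1750 DMSO, 843.5 bp in Tnm2 DMSO and 831.5 bp in Tnm2 UNC0638. The joined regions ran from 469 to 3632 bp with a median of 1095.5 bp, against a median of 1766 bp for regions in all 4 lists.

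The edge of the set is a score cutoff. The weakest member shown here, between genes near Tspan15 at chr10:62175364-62176151, scored 50.14 in CK1750 DMSO, 158.39 in Tnm2 DMSO and 58.34 in Tnm2 UNC0638. Just outside the set lay regions whose treated CK1750 peak barely entered its list. A region near Sprr2a1 on chromosome 3 scored 184.61 in CK1750 DMSO and 50.12 in CK1750 UNC0638, and a region near Commd7 on chromosome 2 scored 105.5 and 50.13. In all, 96 of the 12885 regions in all 4 lists had a CK1750 UNC0638 score under 55, and 73 members had a CK1750 DMSO score under 55.

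The share of regions without a treated CK1750 peak fell with the CK1750 DMSO score. Among regions with a peak in the other 3 lists it was 29.7% (258 of 868) at scores from 50 to 75 and 19.9% (125 of 627) from 75 to 100. From 100 to 150 it was 9.54% (108 of 1132), and from 150 to 200 it was 2.74% (27 of 986). At 500 or more, 1 of 6096 regions was a member. In the lowest class the share was 19.5% (14.5 to 25.6) at promoters and 32.7% (29.3 to 36.3) elsewhere, intervals that do not overlap. From 75 to 100 the values were 18.1% and 20.7%, and from 100 to 150 they were 9.97% and 9.31%, with overlapping intervals.

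**Figure D2:**
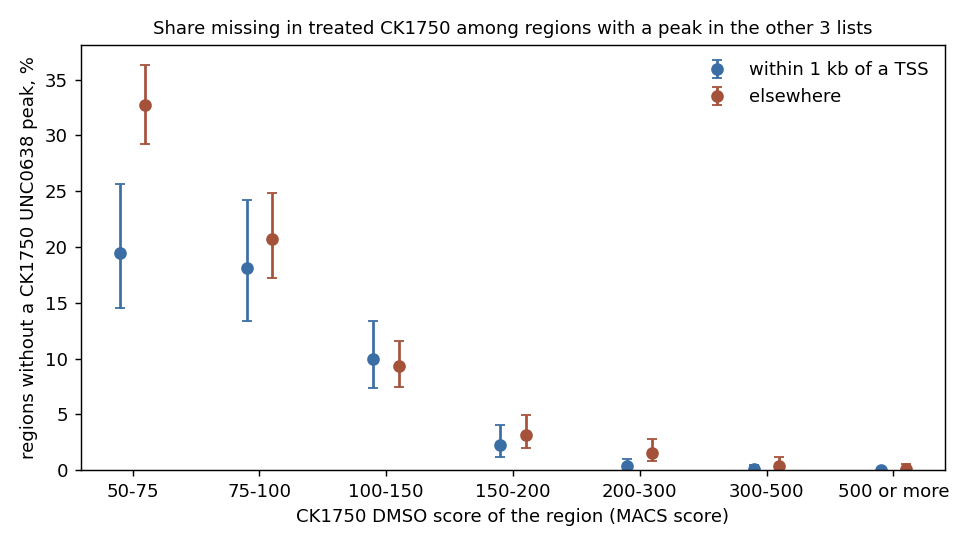
Share of regions without a CK1750 UNC0638 peak (y axis, %) among regions with a peak in the 3 other lists, by the region's CK1750 DMSO score (x axis), within 1 kb of a TSS (blue) and elsewhere (red). Points are shares and bars are 95% Wilson intervals; the shares fall from 19.5% and 32.7% in the lowest class to 2.24% and 3.15% at scores of 150 to 200.

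By the peak lists as deposited, most members lay away from gene starts. Within 1 kb of a transcription start site (TSS) were 127 of 538 (23.6%, 20.2 to 27.4), in an intron 239 (44.4%), between genes 158 (29.4%) and in an exon 14 (2.60%). Of regions in all 4 lists, 65.5% were at promoters. Among regions of that kind with a CK1750 DMSO score under 100 the promoter share was 28.3% (25.8 to 31.0), and among members under 100 it was 19.1% (15.4 to 23.3). The members' promoter share was 39.8% when the lists were shortened to equal numbers of peaks, 36.5% with a score of at least 100 in all lists and 35.8% with an overlap of 50%. At low scores the promoter shares were closer to one another than over all scores, with intervals that still did not overlap. Regions missing only in treated Tnm2 were at promoters in 48.9% (47.2 to 50.6), and regions missing in both treated lines in 24.5% (22.1 to 27.1). Away from promoters, the median distance to a protein-coding TSS was 17479 bp for members and 17494 bp for regions in all 4 lists.

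**Figure D3:**
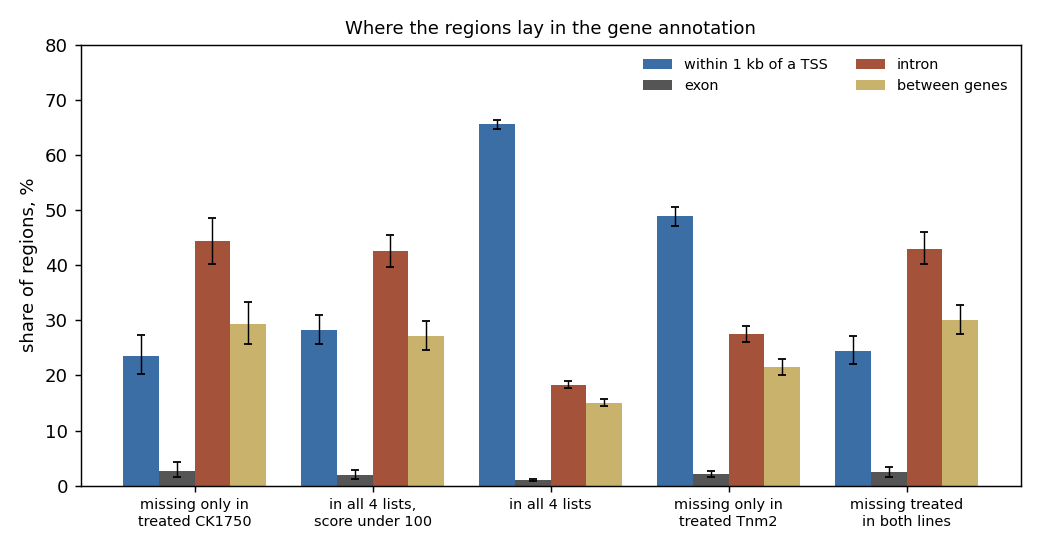
Share of regions (y axis, %) within 1 kb of a TSS, in exons, in introns and between genes, for 5 sets of regions (x axis); score under 100 refers to CK1750 DMSO. Bars start at 0 and error bars are 95% Wilson intervals; promoters made up 23.6% of members and 65.5% of regions in all 4 lists.

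The promoters among the members were less often CpG-rich than those in all 4 lists. A window was called CpG-rich at a GC content of at least 55% and an observed-over-expected CpG ratio of at least 0.65. This held for 38 of 127 member promoters (29.9%, 22.6 to 38.4), for 64.0% (63.0 to 65.0) of promoters in all 4 lists, and for 22.5% (18.3 to 27.5) of the latter with a CK1750 DMSO score under 100. Promoters missing in both treated lines were CpG-rich in 82 of 274 cases (29.9%, 24.8 to 35.6), so this share was not particular to the members. Median GC content was 56.0% in member promoters and 51.3% in members elsewhere. Repeat-masked bases filled more than 50% of the window in 42 members (7.81%, 5.83 to 10.4) and in 3.003% of regions in all 4 lists. The share was 5.13% (3.98 to 6.58) in the latter with a CK1750 DMSO score under 100 and 7.21% (6.89 to 7.55) in all regions with a CK1750 DMSO peak, with intervals that overlap that of the members. In regions missing in both treated lines it was 11.9% (10.1 to 13.9).

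Short strings known from binding sites of transcription factors were counted in the same windows. Away from promoters the AP-1 string stood in 55 of 411 windows (13.4%, 10.4 to 17.0), in 17.4% (16.3 to 18.5) of windows in all 4 lists and in 12.3% (10.2 to 14.8) of those with a CK1750 DMSO score under 100. In promoters the SP/KLF string stood in 21.3% of member windows (15.0 to 29.2), in 33.6% of all-list windows and in 15.9% of those with a low score. The ETS string stood in 20.5% of member promoters (14.4 to 28.3), in 24.7% of those in all 4 lists and in 15.2% of those with a low score. For AP-1 and SP/KLF the members were nearer to the weak regions in all 4 lists, and for ETS nearer to all regions of that kind. The TEAD string (GGAATG) stood in 15.3% of member windows away from promoters (12.2 to 19.1) in 19.6% of those in all 4 lists and in 17.9% of those with a low score. The GATA string (AGATAAG) was in 7 of 127 member promoters (5.51%, 2.70 to 10.9) against 1.30% (1.08 to 1.57), the one of 20 strings whose promoter interval lay wholly above that of promoters in all 4 lists. Promoters in all 4 lists with a CK1750 DMSO score under 100 held it in 1.59% (0.680 to 3.66), an interval that overlaps that of the members. A match is a run of letters and was not tested as a site.

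Members with the highest CK1750 DMSO scores are named here after leaving out those with a near-identical copy or a treated CK1750 peak within 1 kb. R184, between genes 58.6 kb from Pdia4 at chr6:47752012-47754719, scored 738.28 in CK1750 DMSO, 194.97 in Tnm2 DMSO and 88.12 in Tnm2 UNC0638. On the same chromosome, R182 and R183 at chr6:47653390-47674454 had 10 near-identical copies each. R19 at chr1:88575306-88576859, whose window is printed above, scored 236.9, 376.03 and 159.93 in the same order. It was the member with the highest lowest percentile, 61.1, and the nearest treated CK1750 peak was 15.3 kb away. Introns of Zfp462 (R113, 260.94), Sned1 (R24, 260.47) and Slc12a7, a potassium and chloride cotransporter gene (R376, 226.25), were also among the first 10 by CK1750 DMSO score under these limits. R22, between genes 155 kb from Cops8 (318.88), and R203 in Thumpd3 (263.72) ranked there too, with 91.3% and 93.7% of the window in masked repeats. R107, at the start of the noncoding gene Gm42682 near Tspan2, scored 229.97, 142.27 and 137.66.

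Of the members, 107 lay within 1 kb of a protein-coding TSS, at 117 genes. A treated CK1750 peak still stood within 1 kb of a TSS of the gene in 45 cases, and in 72 it did not. Under the same limits Odf3l1 (R280) had the highest CK1750 DMSO score of these promoters, 290.17, with 285.23 in Tnm2 DMSO and 65.45 in Tnm2 UNC0638. R280 also lay within 1 kb of a TSS of Cspg4. Zfp395 (R398) scored 234.75, 194.2 and 236.19, and was 1 of 104 members (19.3%) that ranked higher in Tnm2 UNC0638 than in Tnm2 DMSO. For regions in all 4 lists this share was 12.5%. A treated CK1750 peak lay 1.99 kb from R398, and Zfp395 was 1 of the 45 genes with such a peak within 1 kb of a TSS. Hif1an (R517), whose protein hydroxylates and restrains the hypoxia factor HIF, scored 199.41, 210.05 and 76.1. The 3 promoters ranked in the upper part of the lists with DMSO, while Odf3l1 and Hif1an were below the median of Tnm2 UNC0638.

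Dpy19l3 (R218), an enzyme that adds mannose to tryptophan, scored 184.71 in CK1750 DMSO, 192.8 in Tnm2 DMSO and 132.28 in Tnm2 UNC0638, and its nearest treated CK1750 peak was 47.0 kb away. Dcp1b (R205), a cofactor of messenger RNA decapping, scored 159.76, 269.34 and 147.38 with 153 kb to such a peak. Around Dcp1b each of the other lists had a single peak within 60 kb, at this promoter. Rnf152 (R25), a ubiquitin ligase of the lysosome, scored 153.37, 330.69 and 69.56 with a distance of 306 kb. Pde1b (R432), which breaks down cyclic nucleotides, scored 148.05, 133.69 and 119.13 with a distance of 147 kb. Adra1b (R311), the alpha-1B adrenergic receptor gene, scored 150.49, 332.42 and 92.16 with a distance of 58.7 kb. At each of these 5 promoters the nearest treated CK1750 peak was thus at least 47.0 kb away. The distance to the next CK1750 DMSO peak was not measured. Bphl (R369), Krba1 (R185), Clcn3 (R246) and Gm45844 (R212) were the other promoters among the 10 with the highest score or the highest lowest percentile, with CK1750 DMSO scores between 137.53 and 162.73. Among these, Clcn3 had a treated CK1750 peak within 1 kb of a TSS of the gene.

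Some members ranked high in Tnm2 DMSO and scored under 100 in CK1750 DMSO. These were picked out after their values were seen. The Dlx2 promoter (R67, chr2:71543628-71547011), of a homeobox transcription factor, scored 86.41 in CK1750 DMSO, 1934.03 in Tnm2 DMSO and 849.28 in Tnm2 UNC0638. A treated CK1750 peak began 0.867 kb from it, and its best peaks in the 3 lists did not all overlap. The promoter of Eva1a, linked to autophagy, (R191) scored 76.98, 757.45 and 257.75, that of Dhrs3, a retinaldehyde reductase, (R137) 73.83, 581.92 and 192.06, and that of the adenylyl cyclase gene Adcy7 (R257) 85.9, 602.59 and 344.65. The Eml1 promoter (R356), of a microtubule-binding protein, scored 50.52, 667.36 and 420.53, and a member in its intron (R357) scored 125.13, 230.82 and 171.57. In CK1750 DMSO these promoters had percentiles from 1.02 to 31.6, and in Tnm2 DMSO from 84.7 to 97.8. Adcy7 had a treated CK1750 peak within 1 kb of a TSS of the gene.

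Members were mostly isolated from one another. The treated CK1750 peaks left 512 gaps that held a member, and 24 gaps held more than 1, with 50 members in all. The largest group without copies lay upstream of Ank, which encodes a membrane transporter that controls extracellular pyrophosphate. R407, R408 and R409 lay between chr15:27421553 and 27437693, in a stretch of 1480 kb without a treated CK1750 peak. Among the 16 joined regions in that stretch, only these 3 had a CK1750 DMSO peak. Their CK1750 DMSO scores were 68.01, 61.7 and 173.54, their Tnm2 DMSO scores 418.4, 529.11 and 343.61, and their Tnm2 UNC0638 scores 335.34, 222.86 and 207.43. With R410 and R411 in the introns of Ank, 5 members lay within 50 kb of this gene, the highest number for any gene. Within 60 kb of R408, CK1750 DMSO had 6 peaks, CK1750 UNC0638 2, Tnm2 DMSO 21 and Tnm2 UNC0638 13. The Ank promoter itself had a peak in all 4 lists.

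**Figure D4:**
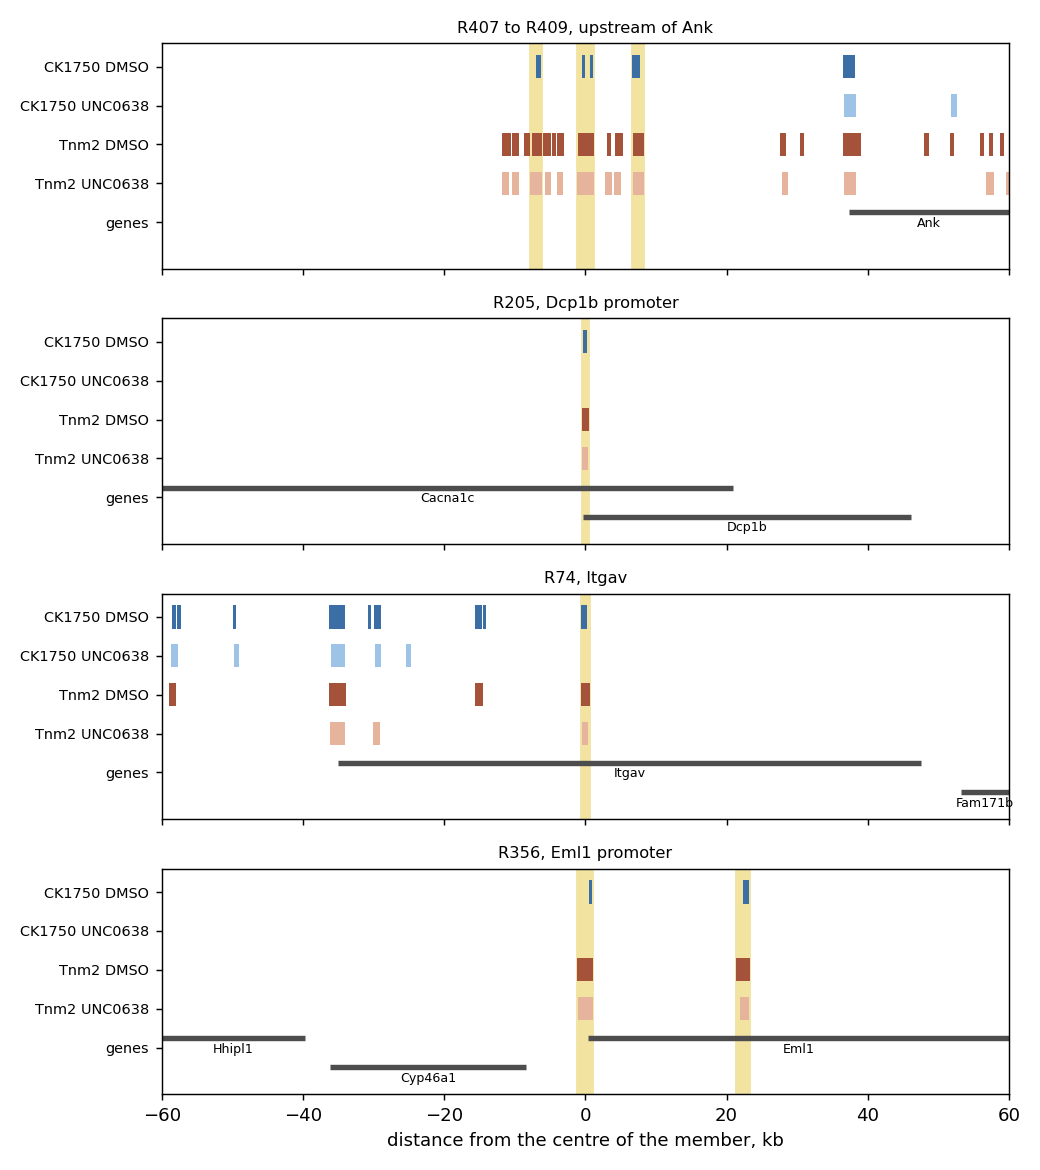
Peaks of each list (rows, boxes to scale) within 60 kb of the centre of a member (x axis, kb) at Ank, Dcp1b, Itgav and Eml1, with members shaded and protein-coding genes as gray bars. At Ank, 3 members have peaks in every list but CK1750 UNC0638, while a peak at the start of the gene is in all 4 lists; at Dcp1b and Eml1, CK1750 UNC0638 has 0 peaks in the window.

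Other gaps with several members were at Eml1 (278 kb without a treated CK1750 peak), at Ppargc1a on chromosome 5 (352 kb), at Sh3pxd2a on chromosome 19 (160 kb), and around Marcksl1, Hdac1 and Lck on chromosome 4 (138 kb). Regions with a CK1750 DMSO peak in these 4 gaps, members included, numbered 2, 3, 2 and 2 in that order. In 113 cases the gap reached 200 kb or more, and these held 124 members. The length of the same gaps in CK1750 DMSO was not measured. R244 on chromosome 8 was the most remote member, 2214 kb from a treated CK1750 peak, with scores of 50.4, 51.63 and 52.24 close to the cutoff in every list. Long distances thus occurred at members close to the cutoff and at higher-scoring ones such as the Rnf152 promoter.

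The typical member had a treated CK1750 peak nearby. The median distance was 8808 bp, with 94 members (17.5%, 14.5 to 20.9) within 1 kb, 283 (52.6%) within 10 kb and 494 (91.8%) within 100 kb. Regions missing in both treated lines lay at a median of 7605 bp from a treated CK1750 peak, with 21.1% (18.8 to 23.6) within 1 kb. Such nearness was thus not particular to the members. Regions missing only in treated Tnm2 lay farther from the peaks of the treated Tnm2 list, at a median of 15857 bp with 10.8% (9.77 to 11.9) within 1 kb. That list had 18794 peaks against 24601 in CK1750 UNC0638, and the part of this in the distances was not tested.

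**Figure D5:**
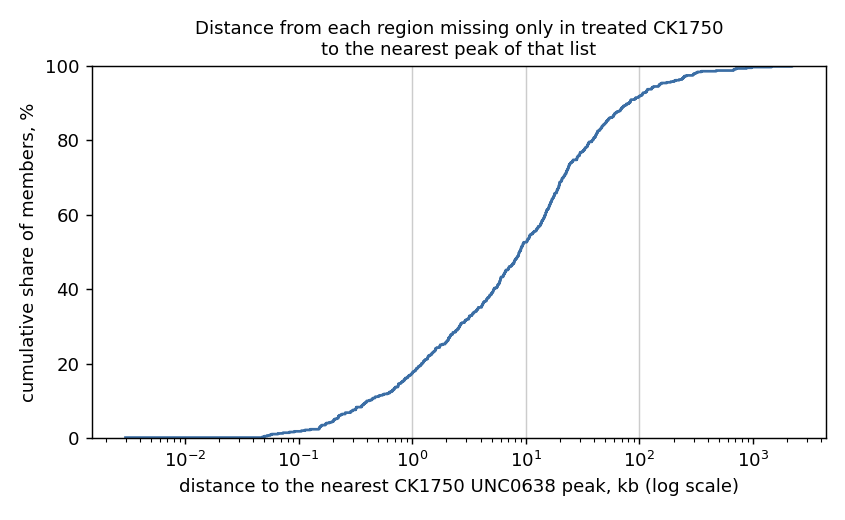
Cumulative share of the 538 members (y axis, %) by distance to the nearest CK1750 UNC0638 peak (x axis, kb, log scale); the line is the members and vertical lines mark 1, 10 and 100 kb. It passes 17.5% at 1 kb, 52.6% at 10 kb and 91.8% at 100 kb.

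Members were found on all chromosomes used. Of regions with a peak in the 3 other lists, the share without a treated CK1750 peak ran from 1.70% on chromosome 3 (13 of 764, 0.997 to 2.89) to 6.43% on chromosome 19 (39 of 607, 4.74 to 8.66). Chromosome 1 had 6.16% (53 of 861, 4.74 to 7.96). On X, 11 of 207 regions were members, and 9 of these 11 had a near-identical copy elsewhere in the genome, 6 of them in a cluster near 4932411N23Rik.

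Near-identical copies, to which short reads cannot be assigned with certainty, concerned 24 members (4.46%, 3.02 to 6.55) and 1.22% (1.04 to 1.42) of regions in all 4 lists. Regions missing in both treated lines had copies in 5.72% (4.51 to 7.24), so such copies were not particular to the members. For regions missing only in treated Tnm2 the share was 2.12% (1.68 to 2.67). Among the 20 members with a CK1750 DMSO score of at least 200, 7 had a copy. The strongest was R202 on chromosome 6, with a score of 367.88 and 13 copies. The 2 members at carboxylesterase 2 pseudogenes on chromosome 8, R261 and R262, had 1 copy each and reached 509.87 and 960.64 in Tnm2 DMSO. Their values are uncertain for this reason.

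Genes were next taken by role, from lists chosen for this tissue and treatment. Of 21755 protein-coding genes, 1062 (4.88%) had a member within 50 kb. None of the 10 genes that the study linked to G9a did (0 to 27.8%), and none of 15 AP-1 factors (0 to 20.4%). Both intervals include the share of all protein-coding genes. A region with a peak in the 3 other lists lay within 50 kb of 6 of the 10 and 14 of the 15. Of the 13 lists other than cell type markers, 8 had a share above that of all protein-coding genes, each with 1 to 4 genes near a member and thus a wide interval. Among these 8, the TGF-beta list counted Tgfa, which is not a gene of that pathway, and exceeded the share of all genes only with it. The share over all genes also counts genes far from any region with a peak in the 3 other lists. Most listed genes had such a region within 50 kb, as did 18 of 18 H3K9 enzyme genes and 20 of 27 integrin and laminin genes. A share over genes matched for this was not computed, so no excess near members is shown. Of 27 integrin and laminin genes 4 had a member within 50 kb (14.8%, 5.92 to 32.5): Itgav, Itga6, Itga7 and Itgb5, receptor chains for the extracellular matrix. R74 in Itgav (chr2:83758744-83760027), 34.2 kb from the gene's nearest start, scored 134.14 in CK1750 DMSO, 356.8 in Tnm2 DMSO and 94.53 in Tnm2 UNC0638. R68 lay 5.45 kb from Itga6 with scores of 111.79, 117.47 and 50.91. The member at Itga7 lay at the promoter of its neighbour Mettl7b, and that in Itgb5 had scores between 50.76 and 58.24, close to the cutoff in each list.

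Of 23 Ras and MAPK feedback genes 2 had a member within 50 kb, Hbegf, a ligand of the EGF receptor (R473, 111.42 in CK1750 DMSO), and Spry4, a feedback inhibitor of the pathway (R475, 88.52). These members lay 5.49 kb from Hbegf and 27.2 kb from Spry4. Of 24 genes listed for the TGF-beta pathway 2 had a member, the receptor gene Acvr1 (R66, 53.18) and Tgfa (R194, 61.96). R66 lay in an intron of Acvr1, and R194 lay 42.4 kb from Tgfa. The product of Tgfa is an EGF receptor ligand in spite of its name, so Acvr1 was the only gene of the pathway itself with a member. Of 23 epithelial and mesenchymal genes 2 had a member. R65 in an intron of Zeb2, a repressor of epithelial genes, scored 177.54 in CK1750 DMSO, 87.17 in Tnm2 DMSO and 79.75 in Tnm2 UNC0638, and R382 in Ocln, a tight junction gene, scored 90.85, 226.52 and 80.93. The 2 lines with DMSO thus ranked these regions in opposite order.

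Of 25 lung lineage factors, Foxa2 (R87, 62.2 in CK1750 DMSO) and Cebpa (R217, 64.15) had a member within 50 kb, and both lay outside the gene. Of 23 Notch pathway genes Rbpj, the DNA-binding factor of the pathway, had 2 adjacent members in its intron (R146 and R147, 53.29 and 67.45). Of 18 H3K9 methyltransferase and demethylase genes, Ehmt1, the gene of Glp, and Kdm4b, a demethylase, had members at neighbouring genes, at the Dph7 promoter (R57, 60.98) and in Plin3 (R462, 58.96). Of 36 genes of matrix proteins and proteases, Adam12 had one in its intron (R235, 50.41) and Loxl2 had one 44.9 kb away (R399, 60.57). Single genes with a member within 50 kb were Nfe2l2 of 17 in the Nrf2 pathway (R70, 69.91), Ccnd3 of 25 in the p53 pathway and cell cycle (R460, 63.83) and Ajuba of 22 in the YAP/TEAD pathway (R392, 110.04). R70 lay in an intron of Nfe2l2, R460 in Taf8 at 19.9 kb from Ccnd3, and R392 at 28.2 kb from Ajuba. Most of these CK1750 DMSO scores were under 100, in the weaker part of the list. A treated CK1750 peak lay 0.153 kb from R70 at Nfe2l2, 0.258 kb from R87 near Foxa2 and 0.474 kb from R462 near Kdm4b.

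Markers of other cell types gave little in any list. None of 9 blood, 7 endothelial and 7 fibroblast marker genes had a promoter peak in any of the 4 lists, and the only one with a member within 50 kb was Pecam1 (R335, 94.68, 383.53 and 233.18, with a treated CK1750 peak at 0.202 kb). Of 9 lung epithelium markers, Krt8, Krt18, Cdh1 and Nkx2-1 had a promoter peak in all 4 lists, and Epcam, Sftpc and Hopx had none in any. Scgb1a1, a club cell gene, had one in both lists with DMSO and in neither with UNC0638, and Sftpb, a surfactant gene, had one in Tnm2 UNC0638 only.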

How the data were processed

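H3K27ac was profiled by chromatin immunoprecipitation and sequencing. According to the methods and processing notes, the authors mapped reads to mouse build 38 (mm10) with Bowtie2 and called peaks with MACS 1.4.2. The deposited lists give each peak's position and score. The control used for calling and the libraries in each merged list are not given in the sources used here, and depth is unknown. The H3K9me2 and input samples (21) were not analysed here.

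Peaks were joined when they overlapped by 1 bp or touched. Positions are 1-based. Genes and TSSs were from GENCODE release M 21, sequences from RefSeq GRCm38. A copy was a minimap2 2.31 alignment elsewhere covering at least 80% at 95% identity. Shares have Wilson 95% intervals. No test between groups was possible.

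Members and lists were chosen with earlier results of these data known. Named were the 10 members with the highest CK1750 DMSO score, the 10 with the highest lowest percentile and the 10 highest protein-coding promoters, each without a copy or a treated CK1750 peak within 1 kb, up to 3 per gene list, and others named as picked later. On simulated lists 391 of 391 members were recovered. Scripts ran in Python 3.11.15 with pandas 2.3.3. Alternatives concerned the score cutoff, overlap, merging, windows and equal list lengths.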

Additional observations from a re-analysis of the deposited data

How the results depend on the processing

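No paired analysis was possible because each group has 1 merged list, which also kept any replicate from being left out. Of 42 alternative values of 6 results, 20 stayed close to the reported value and 22 moved. With a score of at least 100 in all lists there were 208 members, a missing share of 2.30%, a promoter share of 36.5% and a median width of 1416.5 bp. With a score of at least 100 asked only of the 3 lists with a peak the values were 40, 0.443%, 32.5% and 1480 bp. With a reciprocal overlap of 50% with a CK1750 DMSO peak they were 995, 8.94%, 35.8% and 830 bp, the unit then being a peak. When each list was shortened to its 18789 strongest peaks the missing share was 3.56%, the promoter share 39.8%, the median width 1195 bp and the median GC content 53.3%. With a treated CK1750 peak within 1 kb counted as present the missing share was 3.31%, and with peaks within 1 kb merged it was 3.59% and the median width 1276 bp. A promoter window of 2.5 kb gave a promoter share of 32.3%, whole regions a median GC content of 49.0%, and a 600-base window an AP-1 share of 24.9%. The 2 alternatives below were added after seeing the data: members whose best peaks overlapped one another numbered 498, and without members with a near-identical copy (514 left) the promoter share was 23.3%. Depth was unknown, so a member missing from a list that ends at a cutoff and one with less signal cannot be told apart.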

Other observations

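Among the 117 protein-coding genes with a member at a promoter, 11 had a symbol of Zfp and a number (9.40%, 5.33 to 16.1), a naming shared by many zinc finger genes. They were Zfp217, Zfp277, Zfp30, Zfp395, Zfp512, Zfp521, Zfp629, Zfp709, Zfp874a, Zfp933 and Zfp951. Among these, Zfp217, Zfp277 and Zfp395 had a treated CK1750 peak within 1 kb of a TSS of the gene. Of 8338 genes with a promoter region in all 4 lists 2.85% (2.52 to 3.23) had such a symbol, of 1551 genes at promoters missing only in treated Tnm2 2.84% (2.12 to 3.79), and of 241 genes at promoters missing in both treated lines 2.49% (1.15 to 5.32). The family was picked after its members had been seen in the list, the intervals cover counting error only, and the difference was not tested.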
